A study of Homo sapiens with 11 samples.

Results

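The 10 genes described here encode the structural maintenance of chromosomes (SMC) proteins and their closest partners: SMC2, SMC4, NCAPD2, NCAPG and NCAPH of condensin I, SMC1A, SMC3 and RAD21 of cohesin, and SMC5 and SMC6 of the SMC5/6 complex. They were taken by symbol from the 59087 gene symbols in each deposited count table, and 10 of 10 passed the filter on low counts. The list was selected on earlier results of the same libraries, in which SMC2 stood out under knockdown of nemo-like kinase (NLK), so the values of all 10 genes under knockdown are a description and carry no test.

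SMC proteins are long coiled-coil ATPases that work as fixed pairs and close into rings with a kleisin subunit, and the rings fold or tether DNA. Condensin, built on SMC2 and SMC4 with the kleisin NCAPH, compacts chromosomes for mitosis, and the RNAs of several of its subunits are high in dividing cells and low in resting ones. Cohesin, built on SMC1A and SMC3 with the kleisin RAD21, holds sister chromatids together and forms chromatin loops throughout the cell cycle, and SMC5 and SMC6 act in DNA repair and replication.

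The study sequenced RNA of 2 breast cancer cell lines, both known to express the estrogen receptor, in 11 libraries: BT483 and T47D-TamR, a T47D derivative that became resistant to the antiestrogen tamoxifen during long culture with it and is kept in medium that contains it. After 48 h without estrogen, cells of both lines received a non-targeting control siRNA pool, that pool with 0.5 µM tamoxifen, NLK siRNA type 1 or NLK siRNA type 2, each by reverse transfection at 10 nM for 72 h. T47D-TamR cells alone also received vehicle (DMSO), DMSO with 0.5 µM tamoxifen, or 0.5 µM VX-702, known as a p38 MAP kinase inhibitor and labelled here as a drug against NLK, after the same deprivation, with no siRNA named and no duration given. Each of the 11 conditions is 1 library, and RNA came from individual dishes, so p-values measure the spread among these libraries as the models pool it, and the models take a single library to be as variable as the rest; whether tamoxifen was withdrawn from T47D-TamR before the experiment is not stated in the labels used here.

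Total counts ran from 14637083 to 26915863 per library. All 8 luminal epithelial markers examined reached 10 CPM (counts relative to the library's total, after TMM scaling) in both lines. Summed over its list, the basal markers gave 0.865 to 2.10 CPM in BT483 and 35.3 to 72.6 in T47D-TamR, where ACTA2 was the highest at up to 65.0 CPM, and the mesenchymal markers gave 11.96 to 14.5 and 50.3 to 73.4 CPM, with COL1A1 highest in both. The leukocyte and endothelial lists summed to at most 2.88 CPM in any library, and PTPRC, CD3E, PECAM1 and CDH5 were at or under 3 counts in every library. These are bulk samples, so fewer cells of a kind (cells in mitosis among them) and less RNA per cell cannot be told apart.

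Promoters of the condensin genes are shown first, since 4 of these 5 genes were lower with tamoxifen in BT483 at an edgeR adjusted p under 0.05. RefSeq windows on GRCh38.p14, from 250 bases before the annotated start to 50 bases after it, matched 9 of the 10 genes in 12 windows. Each was searched on both strands (on the other strand CCAAT reads ATTGG and TTTGAA reads TTCAAA) for the cell cycle genes homology region (TTTGAA or TTCGAA), for CCAAT, and for E2F sites (TTTCCCGC, TTTGGCGC, TTTCGCGC or TTTGCCGC). The 250 bases before the start follow for 4 genes, 5′ to 3′ on the gene's strand, with every match in capitals.
NCAPG, chr4:17810729-17810978, plus strand: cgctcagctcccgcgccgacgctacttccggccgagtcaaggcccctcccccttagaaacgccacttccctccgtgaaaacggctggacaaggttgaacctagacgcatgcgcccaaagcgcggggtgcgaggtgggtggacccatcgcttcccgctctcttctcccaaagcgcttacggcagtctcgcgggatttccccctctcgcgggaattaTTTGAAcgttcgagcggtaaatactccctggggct
SMC4, chr3:160399400-160399649, plus strand: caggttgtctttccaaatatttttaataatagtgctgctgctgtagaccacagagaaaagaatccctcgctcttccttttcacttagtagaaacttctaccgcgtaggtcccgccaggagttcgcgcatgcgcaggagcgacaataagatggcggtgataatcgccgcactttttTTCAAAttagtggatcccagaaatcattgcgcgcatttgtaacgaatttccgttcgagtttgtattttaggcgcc
NCAPD2, chr12:6493852-6494101, plus strand: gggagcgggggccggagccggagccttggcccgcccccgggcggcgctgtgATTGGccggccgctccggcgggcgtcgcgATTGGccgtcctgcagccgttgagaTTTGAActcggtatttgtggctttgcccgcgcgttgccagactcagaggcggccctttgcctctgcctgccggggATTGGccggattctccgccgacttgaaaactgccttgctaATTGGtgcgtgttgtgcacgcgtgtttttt
NCAPH, chr2:96335516-96335765, plus strand: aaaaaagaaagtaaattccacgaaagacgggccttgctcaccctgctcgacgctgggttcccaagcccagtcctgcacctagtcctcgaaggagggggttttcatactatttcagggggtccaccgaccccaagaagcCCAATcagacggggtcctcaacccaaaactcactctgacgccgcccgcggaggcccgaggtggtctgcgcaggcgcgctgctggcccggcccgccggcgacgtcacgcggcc
The homology region letters began at position -35 from the start in NCAPG, at -75 in SMC4 (in 1 of its 2 windows) and at -145 in NCAPD2. They also occurred in SMC2, at -3 and so across the start, and in SMC3 at -151, which makes 5 of the 12 windows of the 9 genes, while 16.4% of all 35116 RefSeq windows hold them. CCAAT letters occurred in 2 of the 12 windows, those of NCAPD2 and NCAPH, against 34.6% of all windows, and E2F letters in 2, of SMC1A and SMC6, against 3.31%. These are matches of letters in a window and were not tested as binding sites.

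Levels between genes were compared in TPM, a unit that scales counts by transcript length. RAD21 was the highest of the 10 in both lines, at 143 to 226 TPM in the 4 BT483 libraries and 159 to 247 TPM in the 7 T47D-TamR libraries, and its range met that of no other gene of the list. In BT483 the median levels then ran in the order NCAPD2 (46.4 TPM), SMC1A (44.5), SMC3 (34.2), SMC5 (27.1), SMC4 (17.3), NCAPG (11.1), SMC2 (10.4), SMC6 (7.84) and NCAPH (5.28). In T47D-TamR the order was SMC1A (57.9 TPM), SMC4 (41.9), NCAPD2 (39.9), SMC2 (24.7), NCAPH (21.2), NCAPG (20.8), SMC3 (12.5), SMC5 (7.58) and SMC6 (6.02). Apart from RAD21, every neighbouring pair in either order overlapped in range across its libraries.

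**Figure D1:**
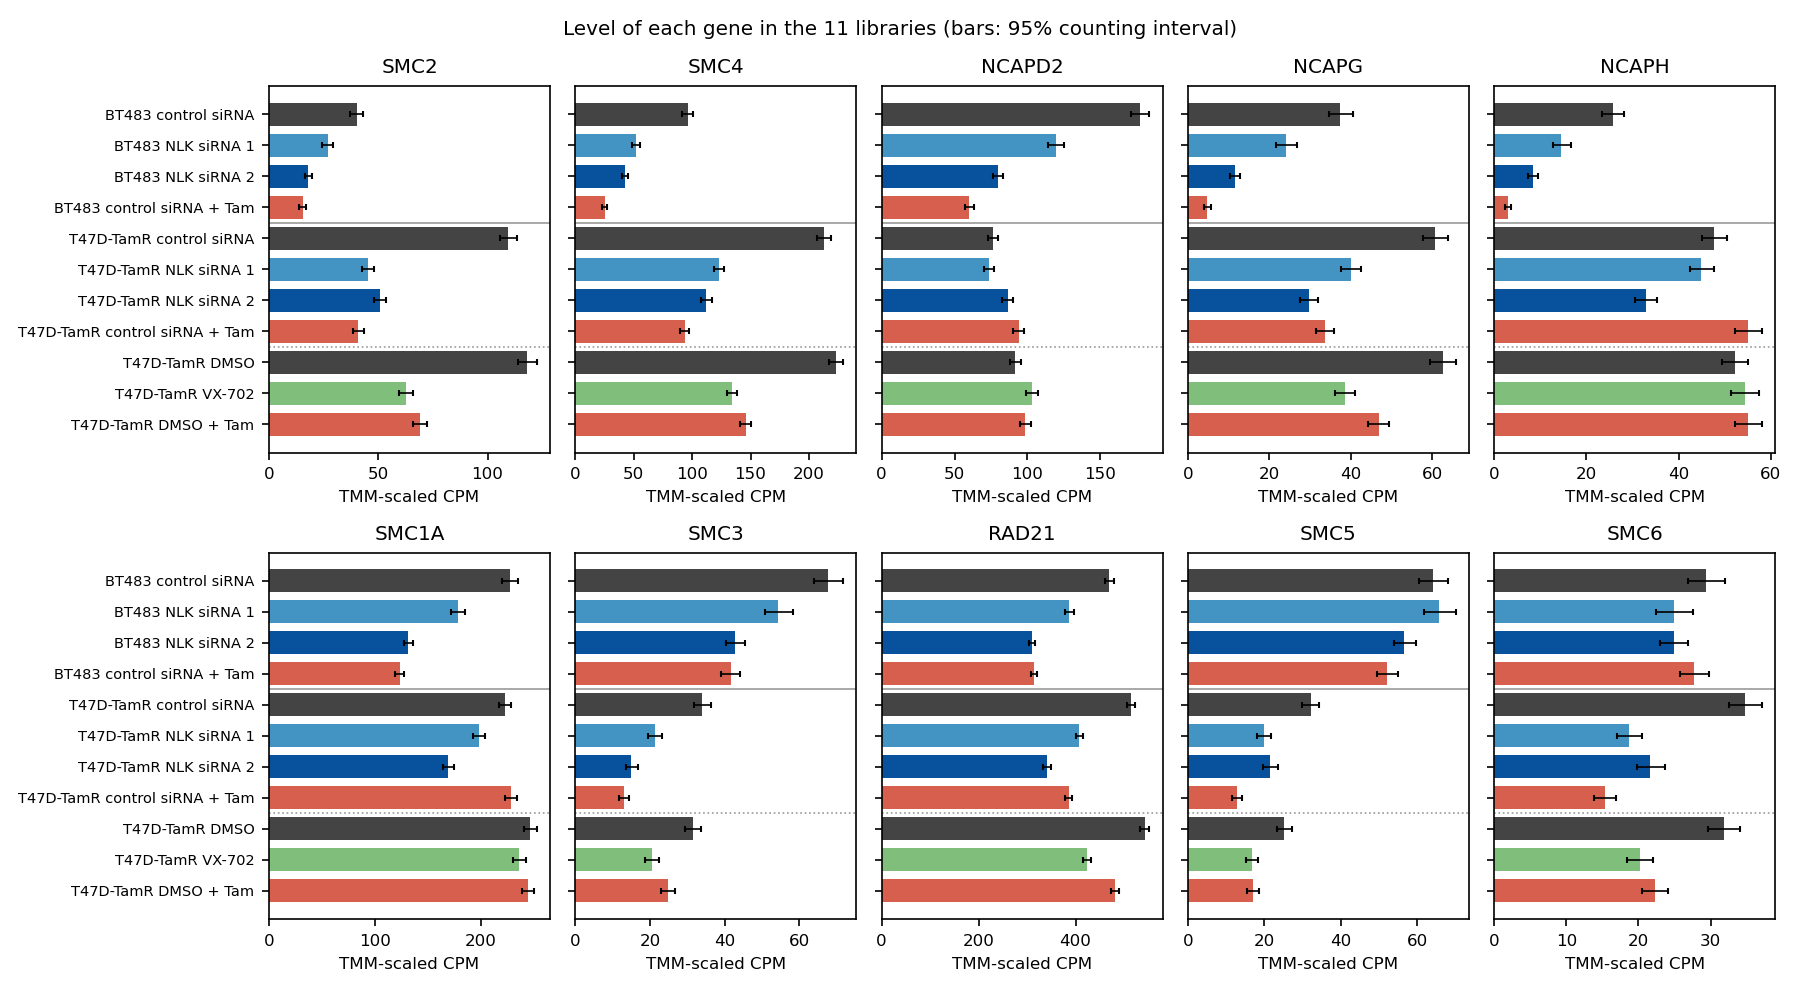
Each panel plots 1 gene: the horizontal axis is its level in CPM after TMM scaling, each bar is 1 of the 11 libraries, and the error bar is the exact 95% Poisson interval of its count, which covers counting error only. Dark bars are controls, blue NLK siRNA, red tamoxifen and green VX-702. NCAPG and NCAPH are lowest in the BT483 tamoxifen library, and in T47D-TamR the SMC2 and SMC4 bars of both controls stand above those of all 5 treated libraries.

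The first comparison was between the lines, over the 4 conditions that both share; a gene is called where its edgeR p, adjusted over all genes tested, is under 0.05. SMC2, SMC4, NCAPG and NCAPH of condensin were lower in BT483 than in T47D-TamR, and SMC3 and SMC5 were higher. SMC2, an ATPase of condensin, was at 40.1 CPM with control siRNA, 26.8 and 17.95 with NLK siRNA types 1 and 2, and 15.4 with tamoxifen in BT483. In T47D-TamR SMC2 was at 109.5, 45.2, 50.7 and 40.9 CPM in the same order. The highest BT483 library was just below the lowest of T47D-TamR, with overlapping 95% counting intervals (37.1 to 43.1 and 38.4 to 43.4 CPM). The log2 difference, BT483 minus T47D-TamR, was -1.28 for SMC2 (SE 0.15, edgeR adjusted p = 1.08e-05).

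SMC4, its partner ATPase, was at 96.1, 51.8, 42.3 and 25.1 CPM in BT483 and at 212.9, 123.0, 112.2 and 93.6 CPM in T47D-TamR, and its difference was -1.42 (SE 0.14, edgeR adjusted p = 2.72e-06). BT483 was below T47D-TamR in each of the 4 conditions, although the BT483 control lay just above the T47D-TamR tamoxifen library. NCAPG, a HEAT-repeat subunit, was at 37.5, 24.2, 11.5 and 4.67 CPM in BT483 against 60.8, 40.001, 29.8 and 33.6 CPM, a difference of -1.36 (SE 0.40, edgeR adjusted p = 0.0286). NCAPH, the kleisin, was at 25.8, 14.5, 8.38 and 2.97 CPM in BT483 against 47.8, 45.0, 32.9 and 55.2 CPM, a difference of -2.08 (SE 0.64, edgeR adjusted p = 0.0428). The ranges of the lines overlapped for NCAPG and not for NCAPH. Both calls were lost when either line's NLK siRNA type 2 library was left out, and NCAPH's also without BT483 type 1, with adjusted p-values up to 0.0902 for NCAPG and 0.104 for NCAPH. Adjusting for the length and GC content of transcripts ended both as well (0.0613 and 0.0590), and testing without a filter on low counts ended that of NCAPH (0.131).

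NCAPD2, the other HEAT-repeat subunit, was at 177.2, 119.8, 79.5 and 60.05 CPM in BT483 against 76.1, 73.4, 86.4 and 93.9 CPM. It was thus higher in BT483 with control siRNA and NLK siRNA type 1, and lower with type 2 and with tamoxifen. Its difference of 0.29 (SE 0.34) did not pass. SMC3, an ATPase of cohesin, was higher in BT483, at 67.7, 54.3, 42.8 and 41.6 CPM against 33.9, 21.2, 14.998 and 12.9, with a difference of 1.39 (SE 0.14, edgeR adjusted p = 4.05e-06) and no overlap. SMC5 was at 64.1, 65.8, 56.6 and 52.1 CPM in BT483, against 32.1, 19.9, 21.6 and 12.8 for T47D-TamR, a difference of 1.53 (SE 0.17, edgeR adjusted p = 7.45e-06), again with no overlap. The remaining 3 genes were nearer to equal. SMC1A, the partner of SMC3, was at 227.5, 178.7, 131.3 and 123.5 CPM in BT483, against 223.1, 198.3, 169.4 and 228.2 for T47D-TamR. RAD21 ran from 311 to 470 CPM in BT483 and from 341 to 514 in these T47D-TamR libraries. SMC6, the partner of SMC5, was at 29.3, 24.9, 24.9 and 27.7 CPM against 34.7, 18.7, 21.6 and 15.4. All 3 overlapped between lines. Differences of -0.34 for SMC1A (edgeR adjusted p = 0.0526), 0.30 for SMC6 and -0.16 for RAD21 did not pass. SMC1A passed with the length and GC adjustment (-0.66, edgeR adjusted p = 0.000854). SMC1A was also called without a low-count filter and with that filter set on the design matrix. It was called too when the control or NLK siRNA type 1 library of either line was left out. SMC6 was called when either line's control siRNA library was left out, and NCAPD2 when either line's tamoxifen library was.

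In all, 6 of the 10 genes differed between lines, where 72.3% of all 19959 genes tested did, a share no higher than that of all genes. Among 35 related genes of condensin, cohesin, SMC5/6 and chromosome structure, 12 of 34 tested were called higher in BT483 and 12 lower. The lower ones were the separase inhibitor PTTG1 (-3.39), CDCA5 (sororin, -2.68), the chromokinesin KIF4A (-2.42), the separase ESPL1 (-2.28), the cohesin acetyltransferase ESCO2 (-2.16), the shugoshin SGO1 (-2.06), NCAPD3 of condensin II (-1.81), and SLF2, STAG1, SMCHD1, WAPL and NSMCE1 (-0.90 to -0.39). The higher ones were NSMCE3 of the SMC5/6 complex (1.74), the cohesin loader NIPBL (1.44), the meiotic kleisin REC8 (1.39), the cohesin regulator PDS5B (1.14), STAG3 (1.10), STAG2 (0.87), and EID3, ESCO1, PDS5A, TOP2B, NCAPH2 and CTCF (0.86 to 0.28). Of 23 genes that peak in G2/M, 21 were lower in BT483 with a median of -2.00 and 18 called lower, and of 18 genes of G1/S, 17 were lower with a median of -1.82. The part of this cell cycle difference in the condensin values was not tested.

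All 5 condensin I genes were lower with tamoxifen in BT483, and 4 of the 5 were called. NCAPH was at 2.97 CPM with tamoxifen against 25.8 with control siRNA, or 11.5% of control (exact 95% counting interval 8.93 to 14.7%). NCAPG fell from 37.5 to 4.67 CPM, 12.5% of control (10.2 to 15.1%). SMC4 fell from 96.1 to 25.1 CPM, 26.2% of control, and NCAPD2 from 177.2 to 60.05 CPM, 33.9%. On the log2 scale edgeR gave -3.11 for NCAPH (SE 0.40, adjusted p = 0.0037), -3.00 for NCAPG (SE 0.52, adjusted p = 0.0380), -1.93 for SMC4 (SE 0.25, adjusted p = 0.00223) and -1.56 for NCAPD2 (SE 0.28, adjusted p = 0.0151). SMC2, at 38.4% of control, missed the threshold (-1.38, SE 0.31, edgeR adjusted p = 0.0623).

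The cohesin and SMC5/6 genes were nearer to control in BT483. SMC1A was at 54.3% of control, SMC3 at 61.4% and RAD21 at 66.8%, with log2 changes of -0.88, -0.70 and -0.58, and SMC5 was at 81.3% and SMC6 at 94.5%; none of the 5 passed. Thus 4 of the 10 genes were called lower in the main edgeR test, all of condensin I, where 1.39% of the 21434 genes tested were. The comparison is 1 library against 1, and the test rests on spread borrowed from the other libraries: leaving out single T47D-TamR libraries ended the calls for NCAPD2 (4 libraries) and NCAPG (6 libraries), with adjusted p-values up to 0.0724 and 0.0974 at fold changes of the same size. With limma on the deposited log2 TPM values none of the 10 genes passed, and 7 genes did in all, against 315 with edgeR. Some settings called more of the list, all lower. DESeq2 added SMC2, as did edgeR when either BT483 library of NLK siRNA was left out. SMC2 also passed when the low-count filter was set on the design matrix, chosen after seeing the data. When no such filter was used, edgeR added SMC2 and the cohesin gene SMC1A. That the calls were confined to condensin I thus depended on the filter.

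Among the related genes 26 of 34 tested were lower with tamoxifen in BT483 and 8 higher. Of the 34, 10 were called lower and none higher. In condensin II, NCAPG2 (-1.91) and NCAPD3 (-1.17) were called lower, and NCAPH2 was at -0.51 without passing. Of 18 tested cohesin partners 15 were lower and 3 higher. The 5 called lower were ESCO2 (-2.94), ESPL1 (-2.91), CDCA5 (-2.79), and the shugoshins SGO2 (-2.48) and SGO1 (-2.36), which protect cohesin at centromeres. None of the 7 SMC5/6 partners passed, and their median was 0.12. MKI67 (-3.37), the chromokinesin KIF4A (-3.25) and topoisomerase TOP2A (-3.15) were called lower as well. In the same contrast all 23 G2/M genes were lower (median -2.84, 18 called) and all 18 G1/S genes were lower (median -1.96, 15 called); MKI67 and TOP2A are in both the related and the G2/M list. The median over all genes tested was 0.01, and the part of the cell cycle genes' fall in the condensin values was not tested.

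In T47D-TamR, tamoxifen left NCAPD2 and NCAPH at or above control. NCAPH was at 47.8 CPM with control siRNA and 55.2 with tamoxifen, and at 52.3 with DMSO and 55.1 with DMSO and tamoxifen. NCAPD2 was at 76.1 and 93.9 CPM in the transfected arm and at 91.5 and 98.5 in the DMSO arm. SMC1A was at 223.1 and 228.2, and at 246.5 and 244.6 CPM. Log2 changes over both pairs were 0.14 (SE 0.24), 0.21 (SE 0.19) and 0.01 (SE 0.17).

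The other 7 genes were lower with tamoxifen in both arms of T47D-TamR, and further below control in the transfected arm. SMC2 was at 37.3% of control in the transfected arm and 58.6% in the DMSO arm, with a log2 change of -1.10 over both (SE 0.22, edgeR adjusted p = 0.0999). SMC4 was at 44.0% and 65.3% (-0.90, edgeR adjusted p = 0.0835), SMC5 at 39.9% and 67.7% (-0.94), SMC3 at 38.2% and 78.9% (-0.86), and SMC6 at 44.2% and 69.8% (-0.85). NCAPG was at 55.2% and 74.8% (-0.64) and RAD21 at 74.98% and 88.8% (-0.29). In this comparison 0 of the 10 genes and 0.0% of all genes passed with edgeR, while 1370 genes had an unadjusted p under 0.05 and DESeq2 called 168 genes, SMC2, SMC4, SMC5 and SMC6 among them. With limma on log2 TPM 0 genes passed. Other edgeR settings added calls, all lower. Without a low-count filter SMC2, SMC3, SMC4, SMC5, SMC6 and NCAPG were called, among 354 genes in all. SMC4 was called with that filter set on the design matrix, chosen after seeing the data. SMC2 was called when the BT483 library of NLK siRNA type 2 was left out. The G2/M and G1/S lists had medians of -0.15 and 0.15, with 0 genes called. The related genes with the largest changes were NIPBL (-0.9999), ESCO1 (-0.99) and SGO2 (-0.92), none of which passed.

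**Figure D2:**
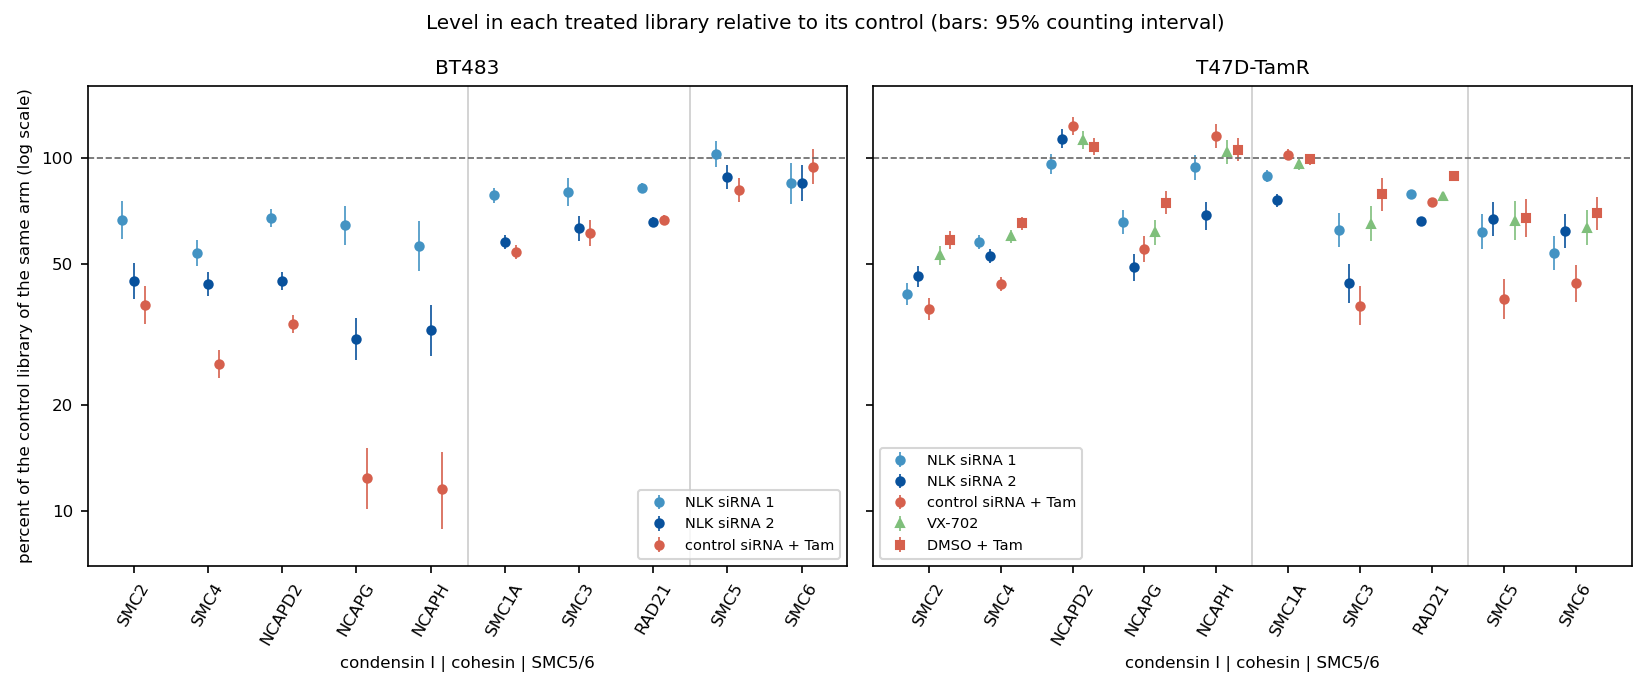
The vertical axis, on a log scale, gives the level of each gene in each treated library as a percent of the control library of the same arm (control siRNA, or DMSO for the squares and triangles), and error bars are exact 95% counting intervals. In BT483 the condensin genes reach down to 11.5% with tamoxifen, while SMC5 and SMC6 stay between 81.3% and 103%. In T47D-TamR the NCAPD2 points lie between 96.4% and 123% and the SMC2 points between 37.3% and 58.6%.

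The difference between lines in the response to tamoxifen was itself tested. NCAPH responded by -3.26 more on the log2 scale in BT483 than in T47D-TamR (SE 0.47, edgeR adjusted p = 0.0128) and NCAPD2 by -1.77 more (SE 0.34, edgeR adjusted p = 0.0372). These were 2 of the 10 genes, where 0.718% of all genes tested were called lower. NCAPG (-2.37, SE 0.60, edgeR adjusted p = 0.221) and SMC4 (-1.04, SE 0.30, edgeR adjusted p = 0.224) were not called, nor were SMC2 (-0.28, SE 0.38) and the remaining 5. Both calls were lost when any 1 of the 4 T47D-TamR libraries with or without tamoxifen was left out and with limma on log2 TPM, and that of NCAPD2 also with the length and GC adjustment (adjusted p = 0.0835) and with at least 10 counts required in every library. Other settings added calls: NCAPG was called lower with DESeq2, without a low-count filter and when either BT483 NLK siRNA library was left out, and SMC4 without a low-count filter. Of the related genes, KIF4A (-3.31), ESPL1 (-3.13), CDCA5 (-2.97), MKI67 (-2.76), ESCO2 (-2.57), TOP2A (-2.26) and NCAPG2 (-1.85) were called too.

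With 1 tamoxifen effect for both lines, SMC2 alone of the 10 genes passed with edgeR. It was lower in 3 of 3 tamoxifen libraries, with a log2 change of -1.19 (SE 0.18, edgeR adjusted p = 0.0436), and 0.0373% of all genes were called lower. The call was lost under 12 of 20 other settings, the length and GC adjustment (-0.96, adjusted p = 0.113) and DESeq2 size factors among them. Other settings added calls, all lower: DESeq2 called SMC2, SMC3, SMC4 and SMC5, edgeR without a low-count filter called these with SMC6, NCAPG and NCAPH, and edgeR called SMC2 and SMC4 when the T47D-TamR library with DMSO alone or that with DMSO and tamoxifen was left out. In all, 7 of the 10 genes (SMC2, SMC3, SMC4, SMC5, SMC6, NCAPG and RAD21) were lower in 3 of 3 tamoxifen libraries than in their controls, as were 11.8% of all genes tested. Tamoxifen and knockdown are read against the same control siRNA libraries, so the values of both comparisons are not independent.

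In T47D-TamR the changes of the 10 genes varied with the GC content of their transcripts. The longest annotated transcripts of SMC5, SMC4, SMC2, SMC6, SMC3, NCAPG and RAD21 have GC contents of 36.6, 37.3, 37.6, 37.6, 38.9, 39.0 and 40.7%, and those of SMC1A, NCAPH and NCAPD2 47.2, 47.6 and 52.5%. The first 7 were lower than control in 5 of 5 treated T47D-TamR libraries, as were 14.1% of all genes tested, and the last 3 were not; 2 of these 5 libraries are knockdown libraries, on which the list was selected, so nothing is read from this count. Across the 10 genes the tamoxifen change in T47D-TamR and GC content had a Pearson r of 0.945 (Spearman 0.952), given as a description since the genes share libraries; in BT483 the values were -0.30 and -0.39.

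Over all genes of T47D-TamR the changes differed with GC content as well. With tamoxifen the median log2 change was -0.29 for 2208 genes under 40% GC and 0.19 for 6481 genes over 50%, against 0.06 and -0.01 in BT483. An offset fitted on transcript length and GC brought the T47D-TamR medians to 0.01 and 0.01. With that offset the T47D-TamR changes were -0.79 for SMC2, -0.63 for SMC3, -0.60 for SMC5, -0.59 for SMC4, -0.55 for SMC6, -0.40 for NCAPG and -0.14 for RAD21, all smaller than before and still below 0, and none passed. In BT483 it left the condensin genes nearly where they were (NCAPH -3.07, NCAPG -2.96, SMC4 -1.90, NCAPD2 -1.51), and SMC2 then passed (-1.34, edgeR adjusted p = 0.0490).

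**Figure D3:**
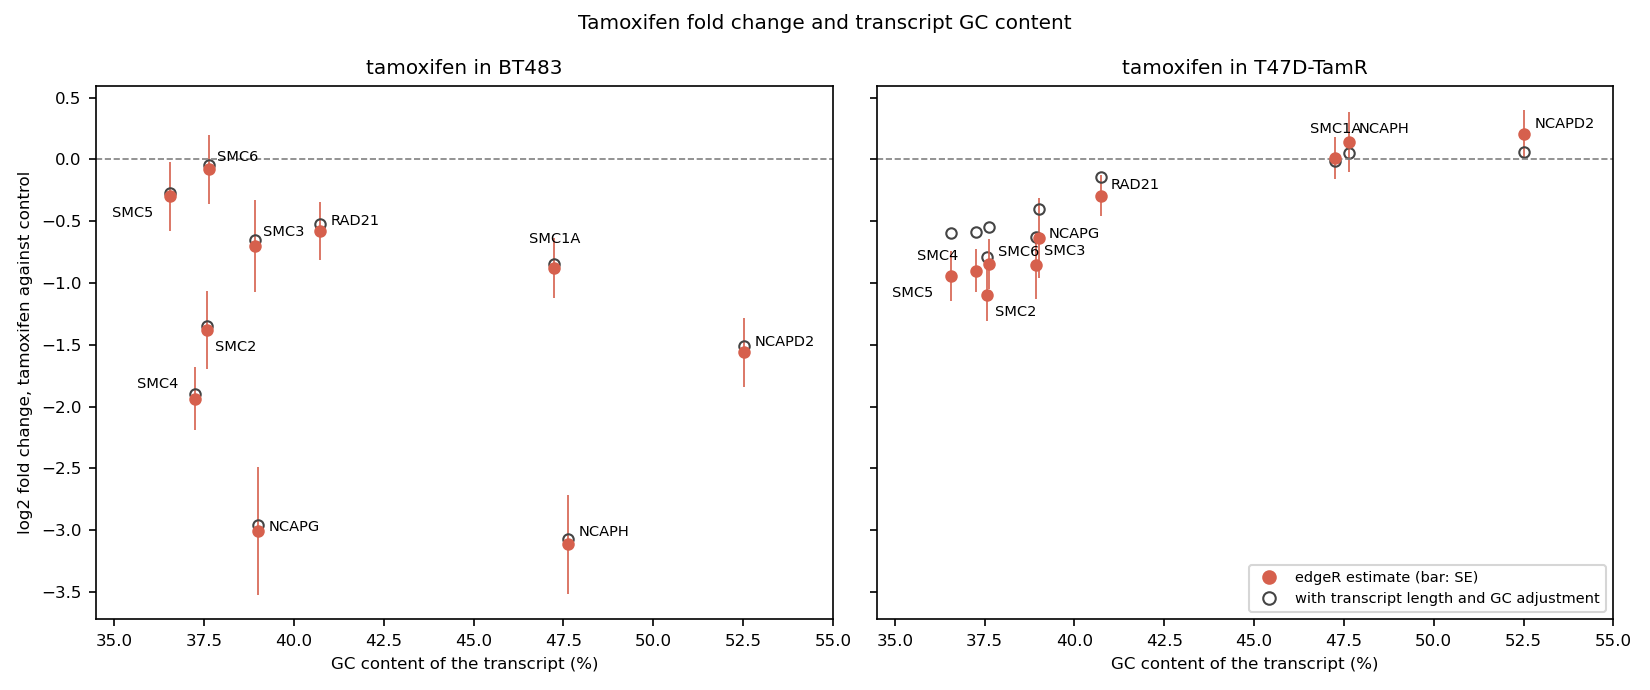
The horizontal axis is the GC content of each gene's longest annotated transcript in percent and the vertical axis the log2 change with tamoxifen, in BT483 on the left and T47D-TamR on the right. Filled points are edgeR estimates with their SE, and open points the estimates after the offset for length and GC. In T47D-TamR the 7 genes under 41% GC lie below 0 and the 3 others near 0, and the open points of the first lie closer to 0.

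VX-702 was compared with DMSO in T47D-TamR, 1 library each. SMC2 was at 62.7 CPM against 118.2, or 53.1% of control (exact 95% counting interval 49.9 to 56.5%), and SMC4 at 134.1 against 223.2 CPM (60.1%). NCAPG was at 61.6% of DMSO, SMC6 at 63.5%, SMC3 at 65.1%, SMC5 at 66.6% and RAD21 at 78.1%. SMC1A was at 95.9%, NCAPH at 104.0% and NCAPD2 at 112.6%. The counting interval of SMC1A (92.5 to 99.4%) lay below the control and that of NCAPD2 (106.4 to 119.3%) above it. Such intervals cover counting error only and hold no spread between dishes. The VX-702 and the tamoxifen library of this arm are read against the same DMSO library.

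In the additive edgeR fit 0 of the 10 genes passed for VX-702 and 0.0% of all genes did, with 1011 genes at an unadjusted p under 0.05 and 0 called by DESeq2 or by limma on log2 TPM. Without a low-count filter edgeR called SMC2, SMC4 and NCAPG lower, among 44 genes in all. The additive fit uses 1 tamoxifen effect for both lines, and through the DMSO and tamoxifen library this effect enters the VX-702 values: it gave -1.19 for NCAPG and -0.37 for NCAPH, where the library ratios are -0.70 and 0.06 on the log2 scale. With tamoxifen fitted per line, a setting chosen after seeing the data, the values were -0.81 for NCAPG, 0.09 for NCAPH, -1.08 for SMC2 and -0.88 for SMC4. The median change of all low-GC and high-GC genes was -0.35 and 0.21 in the additive fit, where the related genes SGO2 (-1.43), TOP2A (-1.31) and MKI67 (-1.12) had the largest changes and none passed.

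Control siRNA and DMSO were compared within T47D-TamR over the pairs with and without tamoxifen. The fitted log2 differences ran from -0.01 for SMC5 to -0.52 for SMC2 (SE 0.20), and 0 of 10 were called lower, where 0.00933% of all genes were. The additive fit behind them uses 1 knockdown and 1 tamoxifen effect for both lines. Through these effects the knockdown and BT483 libraries enter the differences, which are not a summary of the pairs alone. At an unadjusted p under 0.05 there were 1116 genes, DESeq2 called 45 genes and none of the 10, and limma on log2 TPM called 0. Without tamoxifen, control siRNA and DMSO were at 109.5 and 118.2 CPM for SMC2 and 212.9 and 223.2 CPM for SMC4, and with tamoxifen at 40.9 and 69.2 CPM and at 93.6 and 145.8 CPM. The order was not the same for every gene: without tamoxifen SMC5 (32.1 and 25.2 CPM), SMC6 (34.7 and 31.8 CPM) and SMC3 (33.9 and 31.5 CPM) were higher with control siRNA, while NCAPD2 was lower (76.1 and 91.5 CPM).

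NLK knockdown is given as a description. The targeted gene NLK had 30.5 CPM in the BT483 control library and 8.64 and 5.51 CPM in those of siRNA types 1 and 2, and the T47D-TamR libraries had 28.8, 10.2 and 12.04 CPM. It was lower in 4 of 4 knockdown libraries, and its log2 change of -1.75 (SE 0.22, edgeR adjusted p = 0.0599) missed the threshold. The NLK siRNAs named in the labels' protocol follow, since a short seed can match other transcripts.
NLK siRNA #1, sense strand: gucaguaacagAUCCAAGa
NLK siRNA #2, sense strand: gagcugaauuuGAAGACUa
Capitals mark the bases that pair with the seed of the guide strand (its bases 2 to 8). The site occurs once in the longest annotated 3′ UTR of SMC4 for #1 and once in that of SMC1A for #2. It occurs in none of the other 9 in either case, where 10.1% and 12.97% of 19885 coding genes hold it. For each gene the longest 3′ UTR over all its coding transcripts was searched, so that stretch can hold bases that are coding in another transcript. The protocol also names another supplier's version of #1, and no label states how types 1 and 2 map to #1 and #2.

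With knockdown in BT483, SMC2 was at 66.9% of control with type 1 and 44.8% with type 2, SMC4 at 53.9% and 44.0%, NCAPD2 at 67.6% and 44.9%, NCAPG at 64.5% and 30.7%, and NCAPH at 56.4% and 32.5%. The cohesin genes were at 78.5% and 57.7% (SMC1A), 80.3% and 63.2% (SMC3) and 82.5% and 66.1% (RAD21). SMC5 was at 102.6% and 88.3% and SMC6 at 84.8% with both. With either siRNA every condensin gene of the list lay further below control than any cohesin or SMC5/6 gene in this line.

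In T47D-TamR, SMC2 was at 41.3% of control with type 1 and 46.3% with type 2, SMC4 at 57.8% and 52.7%, and NCAPG at 65.8% and 49.0%. NCAPH was at 94.1% and 68.8% and NCAPD2 at 96.4% and 113.5%. SMC3 was at 62.6% and 44.3%, SMC5 at 61.9% and 67.2%, SMC6 at 53.9% and 62.3%, RAD21 at 79.3% and 66.3% and SMC1A at 88.9% and 75.9%. NCAPD2 lay on both sides of control, and the other 9 genes below it with both siRNAs.

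Over both lines 8 of the 10 genes (all but SMC5 and NCAPD2) were lower in 4 of 4 knockdown libraries, as were 10.9% of all genes tested, and in BT483 9 of 10 (all but SMC5) were lower in 3 of 3 treated libraries, as were 22.4%. Fitted log2 changes over both lines ran from -0.92 for SMC2 (SE 0.17), -0.80 for SMC4 (SE 0.19) and -0.76 for NCAPG (SE 0.51) to -0.33 for SMC5 (SE 0.17) and NCAPD2 (SE 0.34), beside a median of 0.02 for all genes. No gene of the list was called over both lines, in BT483, in T47D-TamR or in the difference between lines, and neither was any other gene: 0.0% in each of these 4 edgeR tests, with 1225, 734, 1286 and 667 genes at an unadjusted p under 0.05 and 9, 1, 7 and 0 called by DESeq2 and 0 in each by limma on log2 TPM. Since the list was selected on the knockdown contrast, nothing is read from these counts. The G2/M list had a median of -1.13 in BT483 and -0.29 in T47D-TamR under knockdown, and low-GC and high-GC genes had medians of -0.24 and 0.17 in T47D-TamR and of -0.04 and 0.02 in BT483.

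The siRNAs were compared with each other over both lines. Type 2 gave lower fitted values than type 1 for 9 of the 10 genes (all but SMC6), beside a median of 0.01 for all genes. In T47D-TamR alone SMC2, SMC5, SMC6 and NCAPD2 were higher with type 2 than with type 1, and the remaining genes of the list lower. The largest fitted differences were in NCAPG (-0.76, SE 0.65) and NCAPH (-0.62, SE 0.84), and 0 of 10 were called, where 0.345% of all genes were. At an unadjusted p under 0.05 there were 2123 genes, and DESeq2 called 326 genes and none of the 10. Of the related genes PTTG1 (-0.79), TOP2B (-0.69) and REC8 (0.62) differed most, without passing.

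Partner genes kept different proportions in the lines. NCAPD2 stood to SMC4 at 2.33 to 3.01 in BT483 and 0.451 to 1.27 in T47D-TamR (TPM ratios), and RAD21 to SMC3 at 4.80 to 5.21 and 10.5 to 20.6. SMC1A stood to SMC3 at 1.21 to 1.37 and 2.69 to 7.19, and SMC5 to SMC6 at 2.80 to 3.93 and 1.14 to 1.58. In these 4 ratios the lines did not overlap. The condensin ATPases SMC2 and SMC4 were in like proportion, at 0.526 to 0.772 in BT483 and 0.464 to 0.668 in T47D-TamR, and NCAPG and NCAPH to SMC4 overlapped as well.

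Over the 4 matched conditions the ratio of NCAPD2 to SMC4 was 3.28-fold higher in BT483, and higher in 4 of 4 pairs. With 4 pairs the exact 2-sided permutation test (sign flips) cannot go below p = 0.125, which those 4 ratios reached (0.219 after Benjamini-Hochberg adjustment over 7 ratios), so none passes. Within T47D-TamR the ratios were not constant: RAD21 to SMC3 was 10.5 and 11.9 in the 2 controls and 13.3 to 20.6 in the 5 treated libraries, and NCAPD2 to SMC4 was 0.451 and 0.517 against 0.753 to 1.27. In BT483 RAD21 to SMC3 stayed between 4.80 and 5.21 in all 4 libraries. The numerator of both ratios has the higher GC content (RAD21 40.7% and SMC3 38.9%, NCAPD2 52.5% and SMC4 37.3%). The part of GC content in these ratios was not tested.

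**Figure D4:**
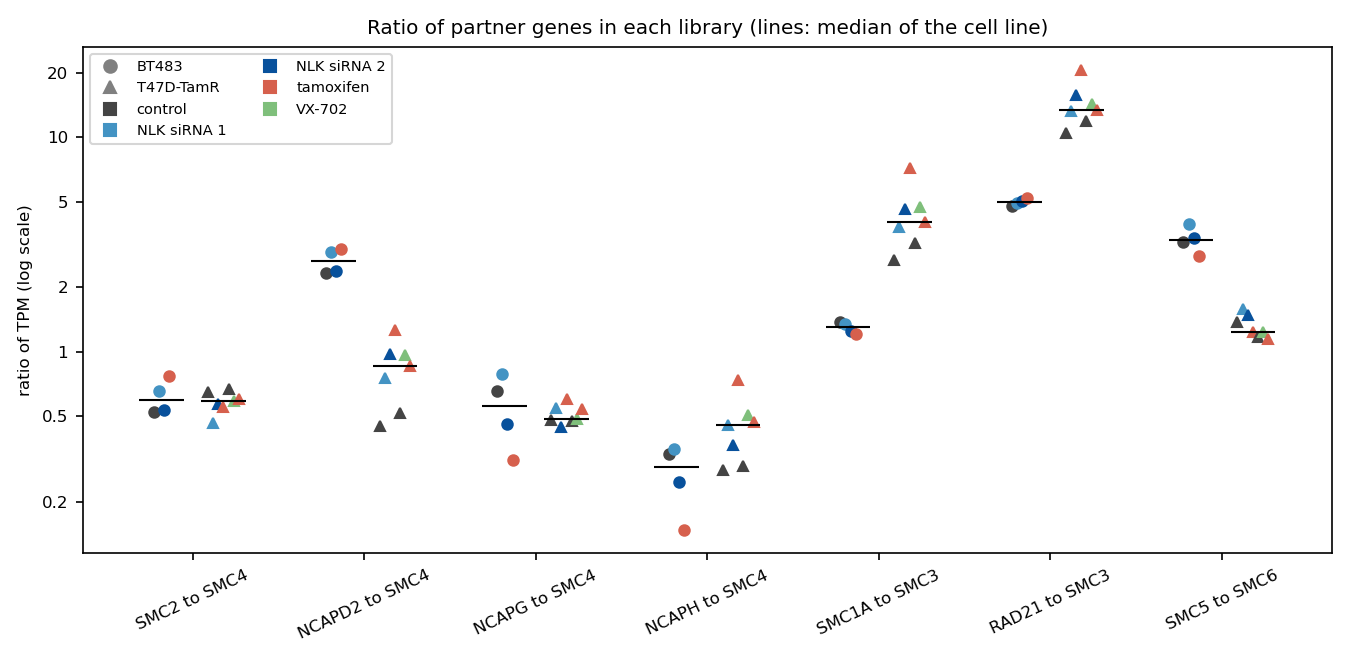
The vertical axis, on a log scale, is the ratio of TPM of 2 genes, and each point is 1 library (circles BT483, triangles T47D-TamR, colours by treatment); horizontal lines are medians of a line. The NCAPD2 to SMC4, SMC1A to SMC3, RAD21 to SMC3 and SMC5 to SMC6 points of the lines lie apart, and the SMC2 to SMC4 points overlap.

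Among the 10 genes, log2 CPM centred within the 3 arms (BT483, T47D-TamR transfected, T47D-TamR drug) varied together to different degrees over the 11 libraries. SMC2 and SMC4 had a Pearson r of 0.94, SMC5 and SMC6 0.91, NCAPD2 and NCAPH 0.92 and NCAPG and NCAPH 0.92, whereas NCAPD2 and SMC5 had 0.04 and NCAPH and SMC6 -0.02. Among 10618 other genes with an average log2 CPM of at least 3, those most like SMC2 included CEP152 (r = 0.983), a centriole protein, SYNE2 (0.981), CKAP2 (0.978) and FANCM (0.976). Those most like NCAPG included the spindle motor KIF11 (r = 0.995), the kinetochore protein NDC80 (0.994), CENPK (0.994) and DLGAP5 (0.994). These r values are descriptions over libraries that share treatments, depth and base composition.

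Several genes share exon bases with a gene on the other strand, and the counting step's strand setting is not given in the sources used here. In GENCODE 29 the share is 33.1% of NCAPG's exon bases (with LCORL), 25.6% for SMC4 (IFT80 and TRIM59), 14.2% for RAD21 (RAD21-AS1 and UTP23) and 7.49% for NCAPD2 (MRPL51), at most 1.09% for SMC1A and SMC6, and 0 for SMC2, SMC3, SMC5 and NCAPH. The libraries are stranded, per the labels' protocols, and if reads were counted without strand those of such partners cannot be told apart from the gene's own.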

How the data were processed

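Each library came with raw counts per gene and, per library and in a table of the whole series, log2 values of TPM plus 1. The counts and the log2 TPM values were deposited by the authors, on build GRCh38 according to the submitters' processing notes. Their aligner, annotation, counting tool and strand setting were not given in the sources used here. Libraries were prepared with a stranded mRNA kit, per the labels' protocols. No column was left unmapped, and 27 gene names in the series table had turned to dates.

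The 10 genes and all gene lists were chosen with earlier results of these data known. The main test was edgeR 4.0.16 (R 4.3.3; TMM scaling, filterByExpr, robust quasi-likelihood) with p-values adjusted by Benjamini-Hochberg across every tested gene and called under 0.05; low-count filtering left 21434 genes, or 19959 for the lines. Knockdown, tamoxifen with 1 effect for both lines, VX-702 and transfection came from an additive fit over 11 libraries (line and arm as blocks). The effects per line came from a fit with 1 knockdown and 1 tamoxifen term per line. The other contrasts came from fits for the siRNA pair and for the lines. Biological coefficients of variation were 0.160 to 0.177. Total counts of 14637083 to 26915863 set the precision; intervals are exact at 95% and cover counting error only, and the floor is 3 counts. CPM are TMM-scaled. The length and GC adjustment was a smooth offset (mgcv 1.9.3) for 97.4% of tested genes, with lengths from GENCODE 29. Alternatives were DESeq2 1.42.0, limma 3.58.1 on the deposited log2 TPM, other filters and scalings, and leaving out each library. filterByExpr on the design matrix, and VX-702 and transfection with effects per line, were added after seeing the data. Scripts were tested on simulated data.

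Named were the 10 genes, NLK, related genes past the threshold (otherwise up to 3 a comparison with the largest change), and, of the 5 genes with the highest correlation to SMC2 and the 5 to NCAPG, 4 each; the others are not reported here.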

Additional observations from a re-analysis of the deposited data

Results flagged for a closer look

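The response to tamoxifen differed between the lines for NCAPH and NCAPD2, by the edgeR test of the difference itself. NCAPH had a log2 change of -3.11 in BT483 and 0.14 in T47D-TamR, a difference of -3.26 (adjusted p = 0.0128). NCAPD2 had -1.56 and 0.21, a difference of -1.77 (adjusted p = 0.0372). BT483 has 1 tamoxifen library and T47D-TamR 2. In the same contrast all 18 G1/S genes and all 23 G2/M genes were lower in BT483, with medians of -2.07 and -2.45, and the part of these in the 2 results was not tested.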

How the results depend on the processing

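No paired analysis was possible because each group is 1 library and the groups share only the replicate number 1, so no replicate block could be fitted; the pairs in the report are libraries of matching condition. Counts of genes called moved by more than 1.5 times in these cases. DESeq2 called 9 genes for knockdown, 1 for it in BT483, 7 in T47D-TamR, 326 for siRNA type 2 against type 1, 118 for tamoxifen, 478 for it in BT483, 168 in T47D-TamR, 332 for the difference of lines and 45 for transfection. Without a filter on low counts the same contrasts gave 249, 163, 108, 339, 513, 670, 354, 502 and 206, VX-702 gave 44 and the knockdown difference 21. filterByExpr on the design matrix, chosen after seeing the data, gave 1 for knockdown, 1 in BT483, 1 in T47D-TamR, 113 for the siRNAs, 53 for tamoxifen in T47D-TamR and 8 for transfection. limma on log2 TPM gave 0 for the siRNAs, tamoxifen and transfection, 7 for tamoxifen in BT483 and 1 for its difference. The length and GC adjustment gave 228 for the siRNAs, 5 for tamoxifen, 96 for its difference and 0 for transfection. A minimum of 10 counts gave 0 for tamoxifen and transfection, tamoxifen without the block for line and arm 0, transfection without robust dispersion 0, and with effects per line, chosen after seeing the data, 1.

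With single libraries left out, genes called ran from 13400 to 14314 for the lines, 0 to 2 for knockdown, 0 to 152 for it in BT483, 0 to 4 for its difference, 0 to 339 for the siRNAs, 0 to 13 for tamoxifen, 165 to 439 in BT483, 0 to 63 in T47D-TamR, 0 to 266 for its difference and 0 to 40 for transfection; knockdown in T47D-TamR and VX-702 kept 0.

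Small estimates changed sign, none of them past the threshold. With limma RAD21 was 0.25 between lines and 0.077 in the knockdown difference (0.014 without the filter), and SMC1A -0.076 with tamoxifen in T47D-TamR (-0.038 without the filter, -0.0027 with 10 counts, -0.011 with length and GC). The length and GC adjustment gave -0.0097 for SMC2 in the knockdown difference, -0.027 for SMC3 in the tamoxifen difference and 0.034 for SMC5 in transfection. With effects per line VX-702 gave 0.22 for NCAPD2 and 0.089 for NCAPH.

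Leaving out libraries changed the sign of NCAPD2 between lines (-0.065 to 0.59), for VX-702 (-0.61 to 0.15) and for tamoxifen (-0.66 to 0.056), of NCAPH for VX-702 (-1.21 to 0.037), and of SMC1A for tamoxifen in T47D-TamR (-0.058 to 0.011). For knockdown they did so for NCAPD2 (-0.60 to 0.26) and NCAPH (-0.93 to 0.20), in T47D-TamR for SMC3 (-0.98 to 0.14), SMC5 (-0.71 to 0.13) and NCAPD2 (-0.13 to 0.13), and in BT483 for SMC5 (-0.18 to 0.044). In the knockdown difference the ranges were -0.30 to 0.46 (SMC2), -0.61 to 0.52 (SMC3), -0.19 to 0.66 (SMC5), -0.11 to 0.64 (SMC6), -1.01 to 0.067 (NCAPG) and -0.21 to 0.12 (RAD21). In the tamoxifen difference they were -0.62 to 0.11 (SMC2) and -0.37 to 0.75 (SMC3), and between siRNAs -0.55 to 0.15 (SMC2), -0.18 to 0.087 (SMC5) and -0.49 to 0.12 (NCAPD2). For transfection they were -0.36 to 0.045 (SMC1A), -0.87 to 0.070 (SMC4), -0.29 to 0.20 (SMC5), -0.44 to 0.045 (SMC6), -0.48 to 0.25 (NCAPD2), -1.04 to 0.29 (NCAPG), -0.88 to 0.55 (NCAPH), -1.30 to 0.33 (MKI67), -1.17 to 0.034 (SGO2) and -1.21 to 0.18 (TOP2A).

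With counts divided by annotated length, median ratios were 0.430 in BT483 and 0.427 in T47D-TamR for SMC2 to SMC4, 2.07 in BT483 for NCAPD2 to SMC4, 0.338 in T47D-TamR for NCAPG to SMC4, 0.432 and 0.678 for NCAPH to SMC4, 7.90 and 21.3 for RAD21 to SMC3, and 1.95 and 0.729 for SMC5 to SMC6; the series table gave 5.48 for RAD21 to SMC3 in BT483. Except where a construction shows it (fewer genes tested, fewer libraries), the cause was not tested. With 1 library a condition, no spread within a condition was measured.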
